A study of Mus musculus with 15 samples.

Results

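Complex I, or NADH:ubiquinone oxidoreductase, is described here through the 43 mouse genes whose symbols begin with Nduf, out of 19500 genes with a probe set of their own on the array. The members were chosen by symbol in the array's annotation, pseudogenes left out, and each gene is represented by its brightest probe set with a single symbol. They comprise 34 complex I subunits, 7 assembly factors (the Ndufaf genes) and 2 genes, Ndufa4 and Ndufa4l2, that carry the symbol for historical reasons. The subunit Ndufb4 was not analysed here. The RNA came from cerebella of mice with the Tg(Pcp2-L10a-Egfp) transgene, in which the promoter of Pcp2, a gene of Purkinje cells, drives a ribosomal protein L10a fused to green fluorescent protein. Ribosomes carrying the tag were captured on antibody beads from pooled cerebella (translating ribosome affinity purification, TRAP), and the RNA bound to them was hybridised to Affymetrix arrays. There are 3 arrays at each of 5 ages, P0, P7, P15, P21 and P56 (P gives days after birth), and all 15 carry the same transgene. Whole cerebellum and animals without the tag were not analysed here, so no value is an enrichment over the tissue. Cerebella were pooled, and the labels leave unsaid whether each array had a pool of its own. The p-values therefore cover the spread between these arrays, which may be technical.

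Complex I is the entry point of the mitochondrial respiratory chain. It oxidises NADH, passes the electrons through iron-sulfur clusters to ubiquinone, and pumps protons across the inner membrane. The complex is shaped like an L, with a matrix arm that holds the NADH and ubiquinone sites and a membrane arm that holds the pumps. Core subunits carry out the chemistry, and the membrane core is encoded by mitochondrial DNA and was not analysed here. Accessory subunits, all encoded in the nucleus, surround the core, and assembly factors build the complex without remaining in it. Purkinje cells, whose axons are the only output of the cerebellar cortex, fire at high rates and depend on oxidative metabolism.

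Promoter sequences are shown first, since all 41 subunits and assembly factors rose in the first week and several factors are known to act on nuclear respiratory genes. RefSeq promoters (assembly GRCm38.p6, 250 bases before to 50 after a gene's start) matched 38 of the 43 members, with 40 promoters. The letters AAGATGGC, the core of the motif of the factor YY1, were searched on both strands and occurred in 7 of the 40 (17.5%), against 2.75% of all 32851 promoters. All 7 were promoters of subunit genes, on the sense strand, with the first base of the match 23 to 39 bases into the transcribed side. A sense match in the 50 transcribed bases occurred in 0.865% of all promoters. Up to 30 bases around each match are printed, with the matched letters in capitals:
Ndufa3: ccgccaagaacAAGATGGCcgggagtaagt
Ndufa9: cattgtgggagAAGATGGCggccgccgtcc
Ndufb8: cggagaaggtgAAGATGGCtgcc
Ndufc1: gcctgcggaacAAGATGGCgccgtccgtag
Ndufs4: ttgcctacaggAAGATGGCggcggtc
Ndufs6: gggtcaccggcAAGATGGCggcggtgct
Ndufs7: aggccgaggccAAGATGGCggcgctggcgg

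These stretches lie at chr7:3617384-3617413 (Ndufa3, plus strand), chr6:126849097-126849126 (Ndufa9, minus), chr19:44555393-44555415 (Ndufb8, minus), chr3:51408915-51408944 (Ndufc1, minus), chr13:114388045-114388070 (Ndufs4, minus), chr13:73328433-73328460 (Ndufs6, minus) and chr10:80249462-80249491 (Ndufs7, plus). The carriers of the YY1 letters did not share a course after P7: Ndufs6 rose by 1.21 on the log2 scale from P7 to P56, whereas Ndufs7 fell by 0.75 and Ndufs4 by 0.64. For NRF1, the letters GCGCATGC or GCATGCGC were present in 5 member promoters (12.5%, against 2.71% of all), those of Ndufa6, Ndufa8, Ndufa11, Ndufaf4 and Ndufaf5. The 2 spellings overlap where a site reads the same on both strands. The ETS letters CCGGAAG, bound by factors such as GABPA, were in 5 promoters (12.5%, against 8.86%). The letters AAGGTCA, read by the estrogen-related receptors, were in 2 (5%, against 4.72%), those of Ndufb2 and Ndufs5. Of the 38 matched genes, 19 held none of the 4 motifs. A match describes letters in the window and does not show binding.

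Upstream sequence is printed for the 3 subunits with the largest rise from P0 to P56, Ndufa1 (chrX:37191239-37191488, minus strand), Ndufb2 (chr6:39592315-39592564, plus) and Ndufs5 (chr4:123718187-123718436, minus). Each line gives the 250 bases before the start, with letters of the searched motifs in capitals:
Ndufa1: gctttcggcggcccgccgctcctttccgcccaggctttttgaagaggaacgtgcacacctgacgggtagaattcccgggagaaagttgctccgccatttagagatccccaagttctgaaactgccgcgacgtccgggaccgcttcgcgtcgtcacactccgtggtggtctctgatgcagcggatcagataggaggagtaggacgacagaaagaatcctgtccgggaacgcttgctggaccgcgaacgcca
Ndufb2: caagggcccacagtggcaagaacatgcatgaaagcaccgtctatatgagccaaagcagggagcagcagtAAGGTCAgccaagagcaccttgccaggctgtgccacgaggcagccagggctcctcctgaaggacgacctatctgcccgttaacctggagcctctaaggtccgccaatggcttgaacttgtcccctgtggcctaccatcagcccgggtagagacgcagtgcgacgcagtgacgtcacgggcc
Ndufs5: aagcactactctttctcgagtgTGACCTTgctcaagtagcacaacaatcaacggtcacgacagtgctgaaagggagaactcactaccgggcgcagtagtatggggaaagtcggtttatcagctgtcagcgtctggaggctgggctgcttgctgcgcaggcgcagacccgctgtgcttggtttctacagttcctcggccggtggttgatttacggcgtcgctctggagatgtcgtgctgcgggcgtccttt

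None of the 4 motifs lies upstream of Ndufa1, and the AAGGTCA letters, on opposite strands, are the only capitals in the other 2.

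Values are log2 signals as deposited, and a difference of 1 is a doubling. A gene was called when limma's adjusted p, over all 22092 probe sets, was under 0.05. Errors are the SD over 3 arrays beside a mean and the standard error (SE) of the fit beside a change. Array medians ran from 7.59 to 7.93 and were lowest at P56, where their mean differed from that at P0 by -0.32. Setting them to 0 moved the median change of all probe sets from 0.08 to 0.41 for P0 to P56, from 0 to 0.27 for P7 to P56 and from -0.03 to 0.21 for P21 to P56. The share of called probe sets that were higher moved with it, from 53.2% to 70.2% for P0 to P56, from 42.5% to 71.9% for P7 to P56, from 39.3% to 69.1% for P21 to P56, from 43.3% to 62.2% for P7 to P15 and from 59.5% to 45.9% for P15 to P21. No member lay under the lower quartile of its array (5.86 to 6.01) on any array. Markers checked the labelled source: the 8 measured of 10 listed Purkinje cell markers rose from list means of 8.68 to 8.73 at P0 to 13.17 to 13.21 at P7 and stayed between 13.17 and 13.43 after that. Other cells also gave signal. At P0 the 7 markers of astrocytes and Bergmann glia averaged 10.74 to 10.75. The 6 endothelial markers averaged 9.08 to 9.22 and the 6 meningeal markers 9.95 to 9.98. All 3 of these lists lay above the Purkinje list at P0. At P7 the glial list averaged 10.15 to 10.18, the endothelial list 6.92 to 6.98 and the meningeal list 7.88 to 7.91. The part of the changing cell mixture and of the amount of tagged ribosomes in the changes of complex I genes was not tested. In such samples, fewer cells of a type and less RNA per cell cannot be told apart.

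All 43 members differed between ages by limma's F-test, as did 81.6% of all probe sets, and 42 did without P56 replicate 1 or without P56 replicate 3. In the subunits, the lowest mean fell at P0 for 32 of 34 genes and at P56 for the other 2. The highest mean fell at P7 for 10 genes, at P15 for 9 and at P56 for 15. All 7 assembly factors were lowest at P0, and their highest mean was at P7 for 2, at P15 for 1 and at P56 for 4. The same counts over all genes are not given here, so these do not set the members apart. The subunits averaged 10.34 to 10.36 over the P0 arrays, 11.64 to 11.69 over those of P7, 11.71 to 11.82 over P15, 11.62 to 11.71 over P21 and 11.89 to 11.96 over P56. The assembly factors averaged 8.47 to 8.56, 9.84 to 9.87, 9.74 to 9.89, 9.60 to 9.80 and 9.99 to 10.09 at the same ages. In both sets the P0 arrays lay below all later arrays.

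**Figure D1:**
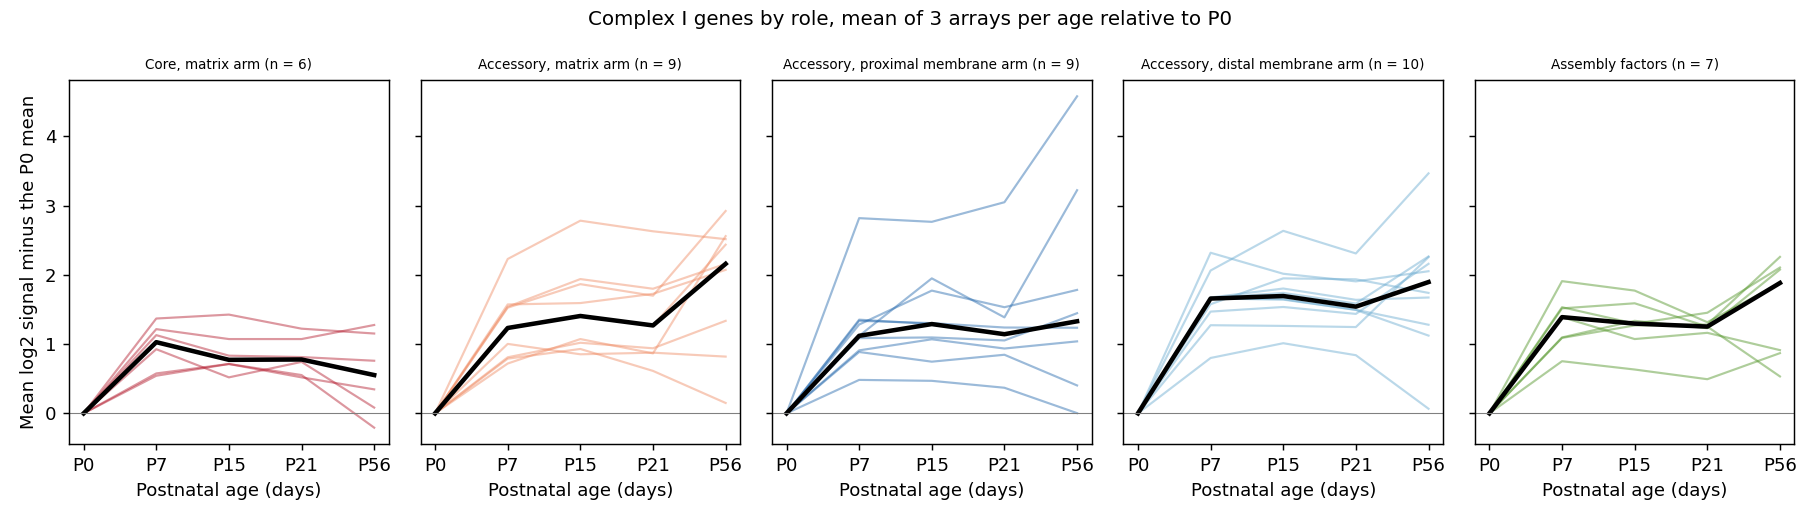
Mean log2 signal of each gene (coloured lines) minus its own P0 mean, at 5 postnatal ages, in 5 panels by role, and the median of the panel (black line). All 5 panels step up at P7. From P7 to P56 the median change is -0.30 for the core subunits of the matrix arm (-0.04 with array medians set to 0) and 0.53 for its accessory subunits (0.79).

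The first postnatal week carried the common rise. From P0 to P7 all 34 subunits rose, against 33.6% of probe sets higher and 28.5% lower, with a median log2 change of 1.28 and a range of 0.48 to 2.82. All 7 assembly factors rose too, with a median of 1.39 and a range of 0.75 to 1.91. The median over all probe sets was 0.05. Arrays of the 2 ages did not overlap for any of these 41 genes. The share of all probe sets without overlap is not given here, so this count does not set the members apart. Ndufa1, an accessory subunit of the membrane arm next to the matrix arm, rose most (2.82), followed by Ndufb7 of the distal membrane arm (2.32) and Ndufa2 of the matrix arm (2.23). Subunits with the smallest rises were Ndufc2 of the membrane arm (0.48), the ubiquinone-side core subunit Ndufs7 (0.55) and the NADH-side core subunit Ndufv2 (0.58). They also had the highest P0 means of the subunits (12.78, 12.68 and 12.08), whereas Ndufa1 had the lowest (7.74). The part of signal level in the size of the rises was not tested. By role, the median rise was 1.03 for the 6 core subunits of the matrix arm, 1.23 for the 9 accessory subunits of that arm, 1.12 for the 9 of the proximal membrane arm and 1.66 for the 10 of the distal membrane arm. Purkinje cell markers rose in the same step by a median of 4.19, all 8 of them, while all 6 endothelial and all 6 meningeal markers fell (medians -2.06 and -2.26).

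From P7 to P15, 10 subunits rose and 2 fell, against 10.4% of probe sets higher and 13.6% lower. The subunit median was 0.07. Ndufs5, a membrane-arm subunit that faces the intermembrane space, rose by 0.83, Ndufb2 by 0.57 and Ndufa2 by 0.55. Of the 10 risers, 5 belonged to the 9 accessory subunits of the matrix arm: Ndufa2, Ndufa5, Ndufa7, Ndufa12 and Ndufv3. The call of Ndufa12 ended without P7 replicate 3 or P15 replicate 1, and that of Ndufv3 without any 1 array of P7 or P15 and without P0 replicate 1 or 2. The 2 that fell were core subunits of the NADH module, Ndufv1 (-0.41) and Ndufs1 (-0.29). Among the assembly factors, Ndufaf3 (-0.32) and Ndufaf7 (-0.23) fell and none rose. Both calls ended without P7 replicate 1, 2 or 3, without P15 replicate 3, with array medians set to 0 and in a fit without the P0 arrays, each of which left 0 assembly factors lower.

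From P15 to P21, of 34 subunits 1 rose and 5 fell, against 10.5% of probe sets higher and 7.16% lower, with a median of -0.14. Ndufa1 rose by 0.29, a call that ended without P15 replicate 3 or P21 replicate 1, 2 or 3 and with array medians set to 0. Ndufs5 fell by 0.56, Ndufb2 by 0.33, Ndufs4, an accessory subunit of the NADH module, by 0.32, Ndufc1 by 0.24 and Ndufv2 by 0.19. The calls of Ndufc1 and Ndufv2 ended without P15 replicate 1, 2 or 3 or P21 replicate 2 or 3, and that of Ndufv2 also without P0 replicate 1 or P7 replicate 1, 2 or 3. The count of subunits that fell was 3 without P15 replicate 1, 2 or 3 or P21 replicate 3, 11 with array medians set to 0 or without the dimmest 50% of probe sets, and 10 with a trended and robust prior. Ndufaf4 was the assembly factor that fell (-0.46).

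From P21 to P56 the members divided. Of 34 subunits, 16 rose and 9 fell, against 22.1% of probe sets higher and 34.3% lower, with a median of 0.13 and a range of -0.77 to 1.84. Ndufs5 rose by 1.84, Ndufa12, an accessory subunit of the NADH module, by 1.69 and Ndufa1 by 1.53. Rises of at least 1 were also seen for Ndufa5, Ndufs6, Ndufb2 and Ndufb10. Falls were largest for Ndufb11 of the distal membrane arm (-0.77), Ndufs7 (-0.76) and Ndufv1 (-0.66). Among the assembly factors, 5 rose and 1 fell, with a median of 0.56. Ndufaf5 rose by 0.98 and Ndufaf2 by 0.85, and Ndufaf1 fell by 0.72. The count of subunits that fell was 5 with array medians set to 0, where Ndufb5 and Ndufv2 turned positive, and 2 assembly factors fell without P15 replicate 1, 2 or 3. Markers of oligodendrocytes moved in the same step: 5 of 6 fell, and their list mean went from 10.54 to 10.78 at P21 to 9.30 to 9.45 at P56. Of the markers of astrocytes and Bergmann glia, 5 of 7 fell. The part of these cells in the members' changes was not tested.

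The span from P7 to P56 leaves out the newborn arrays, and here the roles differed in their counts. Of all probe sets, 25.4% were higher at P56 than at P7 and 34.2% lower. Among the 6 core subunits of the matrix arm, 0 rose and 5 fell, with a median of -0.30. These were the NADH-binding flavoprotein Ndufv1 (-0.84), Ndufs7 (-0.75), the iron-sulfur subunit Ndufs1 (-0.37), Ndufv2 (-0.23) and Ndufs8 (-0.22), and the remaining one, Ndufs3, changed by 0.05 (limma adjusted p 0.499). Among the 9 accessory subunits of the same arm, 7 rose and 2 fell, Ndufs4 (-0.64) and Ndufa9 (-0.19), with a median of 0.53. Ndufa9 turned positive with array medians set to 0 (0.078, not called), and its call also ended without P7 replicate 1 or 2 or P56 replicate 2, each of which left 1 lower. The risers were Ndufa12 (1.84), Ndufa5 (1.40), Ndufs6 (1.21), Ndufa7 (0.62), Ndufv3 (0.53), Ndufa6 (0.50) and Ndufa2 (0.28). With array medians set to 0, the core counts became 1 higher and 2 lower and the core median -0.04, against 0.79 for the accessory subunits: Ndufs8 (0.049) and Ndufv2 (0.035) turned positive without a call and Ndufs1 lost its call, while Ndufv1 and Ndufs7 remained lower. As deposited, the call of Ndufs8 ended without P7 replicate 3 or P56 replicate 1. No test compared the roles with each other. The roles also differed in signal level. At P7 the means ran from 11.06 (Ndufs1) to 13.23 (Ndufs7) in the core subunits. In the accessory subunits of the arm they ran from 10.22 (Ndufa5) to 12.66 (Ndufs4). Ndufs4 and Ndufa9 (12.15), the 2 accessory subunits that fell, had the highest P7 means of that role. The part of signal level in the direction of change was not tested.

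In the membrane arm both directions were found from P7 to P56. Of the 9 proximal subunits 4 rose, Ndufs5 (2.10), Ndufa1 (1.76), Ndufc1 (0.50) and Ndufa3 (0.36), and 2 fell, Ndufa10 (-0.49) and Ndufc2 (-0.48). Of the 10 distal subunits 4 rose, Ndufb2 (1.40), Ndufb10 (0.99), Ndufb9 (0.69) and the acyl carrier protein Ndufab1 (0.60), and 3 fell, Ndufb11 (-0.73), Ndufb6 (-0.53) and Ndufb5 (-0.38). Medians were 0.13 and 0.08. Setting array medians to 0 raised the proximal count to 7 higher and ended the call of Ndufb5. As deposited, over all 34 subunits 15 rose (44.1%) and 12 fell (35.3%), against 25.4% of all probe sets higher and 34.2% lower. Of 7 assembly factors 3 rose (42.9%) and 2 fell (28.6%). The shares were 44.4% higher and 22.2% lower in the proximal membrane arm and 40% and 30% in the distal. The shares that fell thus lay near or below that of all probe sets.

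**Figure D2:**
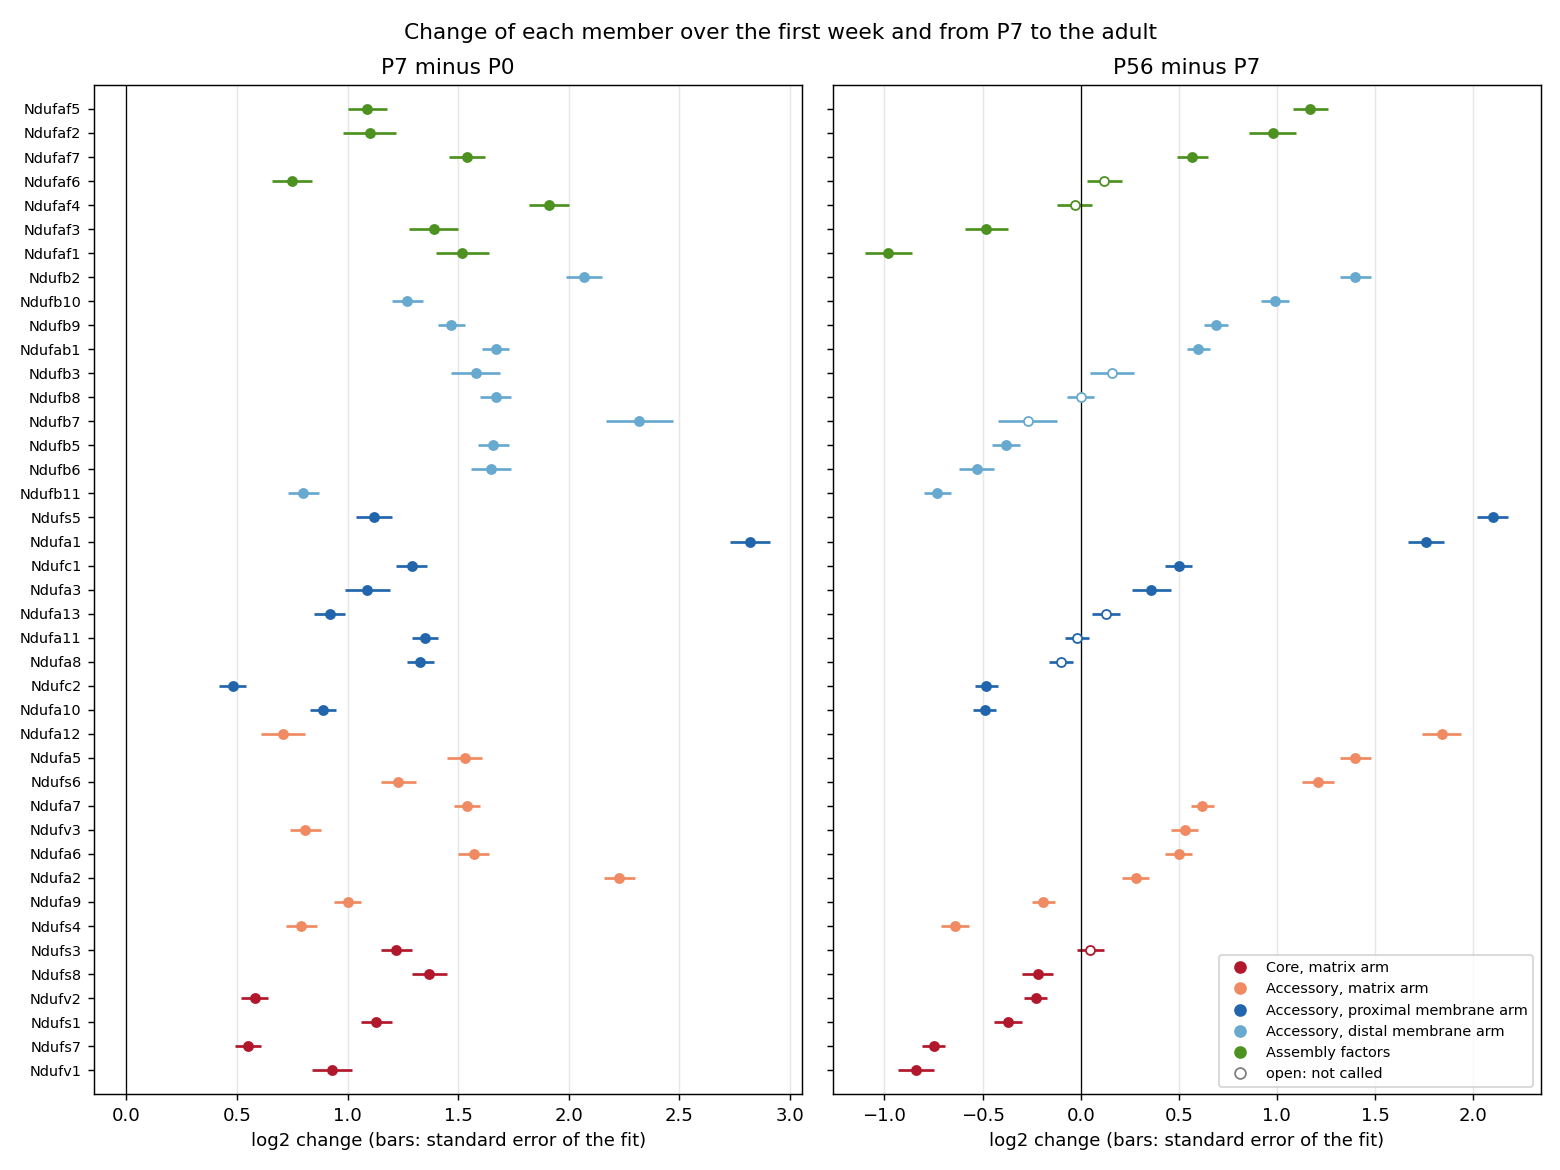
Log2 change of each subunit and assembly factor from P0 to P7 (left) and from P7 to P56 (right), points coloured by role, bars showing the SE of the fit and open points genes that were not called. All points lie to the right of 0 in the left panel, whereas in the right panel 5 of 6 core subunits of the matrix arm lie left of 0 and were called, and 7 of its 9 accessory subunits lie right of 0 and were called.

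The whole span from P0 to P56 sums these steps and shares its arrays with them. Of 34 subunits, 29 rose, 1 fell and 4 were not called, against 40.1% of probe sets higher and 35.3% lower, with a median log2 change of 1.39 and a range of -0.20 to 4.58. All 7 assembly factors rose, with a median of 1.89 and a range of 0.53 to 2.26. The median over all probe sets was 0.08. By role the subunit medians were 0.55 (core, matrix arm), 2.16 (accessory, matrix arm), 1.33 (proximal membrane arm) and 1.90 (distal membrane arm).

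Ndufa1 is a small membrane-spanning subunit and had the largest change of the members. Its arrays read 7.84, 7.81 and 7.57 at P0, 10.62, 10.55 and 10.51 at P7, 10.61, 10.62 and 10.29 at P15, 10.81, 10.79 and 10.77 at P21 and 12.40, 12.31 and 12.25 at P56. Every P56 array lay above every earlier array, and every P0 array below every later one. From P0 to P56 it rose by 4.58 (SE 0.09, limma adjusted p 3.55e-17), a fold of 23.9.

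Ndufb2 rose most in the distal membrane arm. It read 8.05, 8.16 and 7.97 at P0, 10.12, 10.21 and 10.04 at P7, 10.80, 10.62 and 10.67 at P15, 10.40, 10.28 and 10.43 at P21 and 11.60, 11.57 and 11.41 at P56. No 2 ages overlapped, and P21 lay below P15. The change from P0 to P56 was 3.47 (SE 0.08, limma adjusted p 1.70e-16). Ndufs5 had a similar course, with means of 8.99 ± 0.14, 10.11 ± 0.07, 10.94 ± 0.01, 10.38 ± 0.04 and 12.22 ± 0.11 (SD, n = 3), and rose by 3.22 over the span.

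Ndufa5 led the accessory subunits of the matrix arm, where it belongs to the ubiquinone module. Its arrays read 8.80, 8.53 and 8.75 at P0, 10.19, 10.32 and 10.15 at P7, 10.58, 10.54 and 10.56 at P15, 10.38, 10.41 and 10.39 at P21 and 11.75, 11.56 and 11.54 at P56. All 5 ages were separate from each other. It rose by 2.93 (SE 0.08, limma adjusted p 1.41e-15). In the same role Ndufa12 rose by 2.56, Ndufa2 by 2.52, Ndufs6 by 2.44, Ndufa7 by 2.16, Ndufa6 by 2.07, Ndufv3 by 1.34 and Ndufa9, a subunit of the ubiquinone module, by 0.82.

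Among the core subunits, Ndufs3 had the largest rise. It read 11.35, 11.42 and 11.23 at P0, 12.58, 12.55 and 12.52 at P7, 12.45, 12.46 and 12.31 at P15, 12.40, 12.35 and 12.47 at P21 and 12.62, 12.62 and 12.59 at P56. The gain was present at P7, and P0 stood apart from all later arrays. Its change over the span was 1.27 (SE 0.07, limma adjusted p 9.86e-12). Ndufs8 rose by 1.16, Ndufs1 by 0.76 and Ndufv2 by 0.35.

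Ndufs7, which carries the last iron-sulfur cluster before ubiquinone, was the 1 member called lower at P56 than at P0. Its arrays read 12.67, 12.68 and 12.71 at P0, 13.24, 13.23 and 13.22 at P7, 13.40, 13.36 and 13.44 at P15, 13.30, 13.23 and 13.19 at P21 and 12.46, 12.55 and 12.43 at P56. The P56 arrays lay below all others, and the P15 arrays above all others. Its change was -0.20 (SE 0.06, limma adjusted p 0.00593), which turned to 0.12 without a call when array medians were set to 0.

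The 4 subunits not called over the span all rose in the first week and fell from P21 to P56, the fall of Ndufc2 without a call when array medians were set to 0. Ndufv1 went from 11.11 ± 0.04 at P0 to 12.04 ± 0.01 at P7 and 11.19 ± 0.13 at P56 (SD, n = 3), a change over the span of 0.09 (SE 0.09, limma adjusted p 0.381). Ndufs4 went from 11.88 to 12.66 at P7 and 12.03 at P56 (0.15, SE 0.07, limma adjusted p 0.0758), and its P0 and P56 arrays did not overlap. Ndufc2 was at 12.78 at both ends, with 13.26 at P7. Ndufb11 was at 11.85 and 11.92 at the ends and 12.86 at P15, a change of 0.07 (SE 0.07, limma adjusted p 0.369). A further probe set of Ndufb11 rose by 0.67 (SE 0.09, limma adjusted p 3.18e-06) over the span, and both fell from P21 to P56 (-0.77 and -0.55). With array medians set to 0, all 4 were called higher at P56, whereas after quantile normalization Ndufc2 was called lower (-0.18) and Ndufb11 turned to -0.04. Ndufs4 was called higher without P21 replicate 1. The further probe sets of Ndufab1, Ndufc1 and Ndufs3 changed over the span by 2.47, 1.93 and 1.25, close to the 2.27, 1.79 and 1.27 of the probe sets used.

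**Figure D3:**
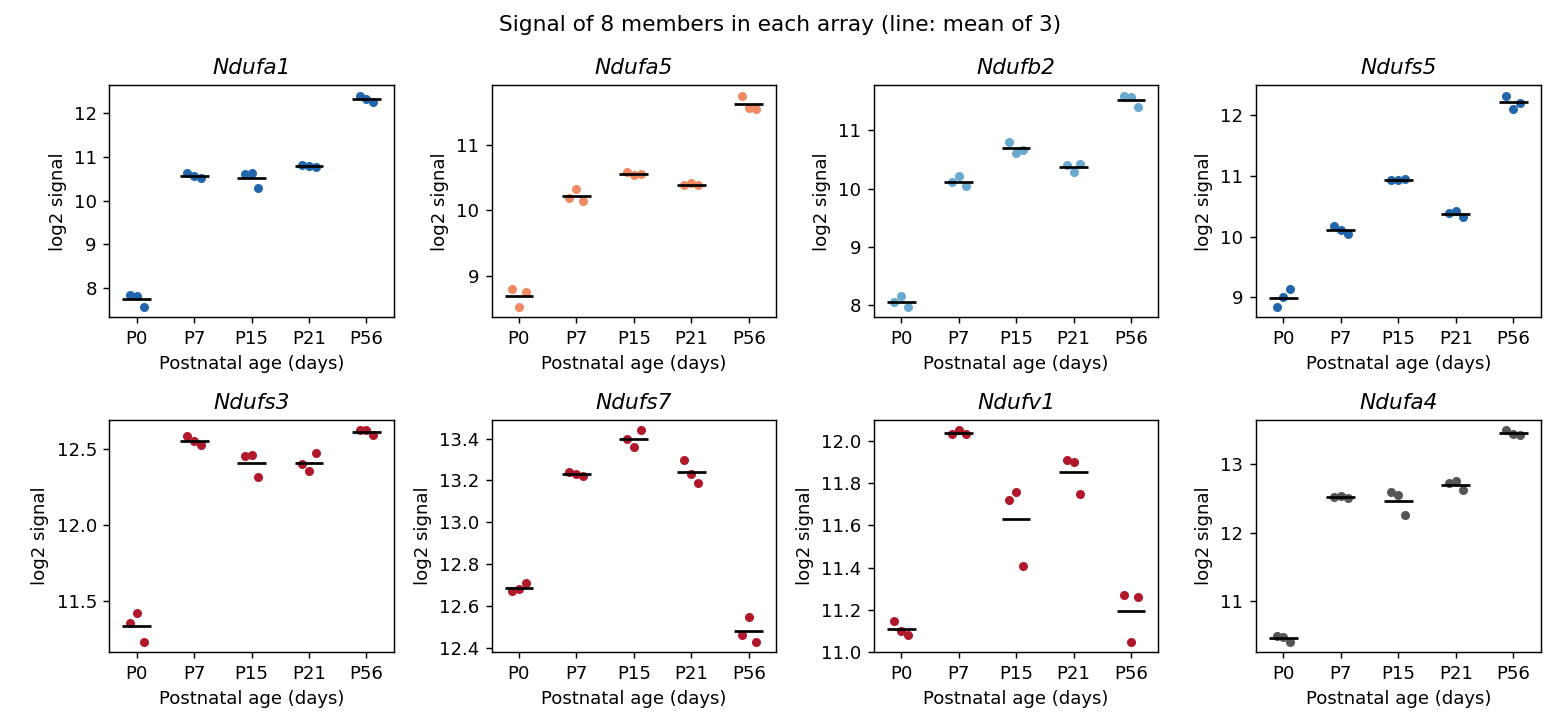
Log2 signal of 8 members on each of the 15 arrays (points, 3 per age) with the mean of each age (short line), each panel on its own y axis. Ndufa1, Ndufa5, Ndufb2 and Ndufs5 reach their highest level at P56, whereas Ndufs7 and Ndufv1 are at 12.48 and 11.19 on average at P56, below their P7 means of 13.23 and 12.04.

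Assembly factors act at different stages, and their courses differed. Ndufaf5, a protein of the methyltransferase family that modifies Ndufs7, rose most. It read 7.70, 7.75 and 7.84 at P0, 8.83, 8.88 and 8.85 at P7, 9.13, 9.06 and 8.91 at P15, 9.08, 8.86 and 9.20 at P21 and 10.01, 10.13 and 9.93 at P56. P0 was below and P56 above all other arrays, and P21 overlapped both P7 and P15. Its change over the span was 2.26 (SE 0.09, limma adjusted p 1.18e-13), while Ndufs7, the subunit it modifies, was lower at P56 than at P0 as deposited.

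Ndufaf7, a mitochondrial methyltransferase, had means of 7.80, 9.33, 9.10, 9.25 and 9.91 over the 5 ages and rose by 2.11 over the span. Ndufaf2, a relative of Ndufa12 that is exchanged for it late in assembly, had means of 8.18, 9.28, 9.52, 9.41 and 10.26 and rose by 2.07. Ndufa12 itself had 10.19, 10.91, 11.26, 11.06 and 12.75. Both members of that pair had their highest mean at P56. Ndufaf3 and Ndufaf4 act together on the early ubiquinone module. Ndufaf4 had means of 8.59, 10.51, 10.37, 9.92 and 10.48, a rise of 1.89, and Ndufaf3 had 10.46, 11.85, 11.54, 11.63 and 11.38, a rise of 0.91. From P7 to P56 Ndufaf3 fell by 0.48, a call that ended with array medians set to 0, and Ndufaf4 changed by -0.03 (limma adjusted p 0.809).

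Ndufaf1, which with other proteins builds the membrane arm, peaked and fell back. Its arrays read 9.52, 9.42 and 9.28 at P0, 10.93, 10.91 and 10.93 at P7, 11.05, 10.90 and 11.04 at P15, 10.92, 10.78 and 10.28 at P21 and 9.95, 9.91 and 9.96 at P56. P21 replicate 3 stood below the other 2 arrays of its age, and all P56 arrays lay between P0 and P21. From P7 to P56 it fell by 0.98, and over the span it rose by 0.53 (SE 0.12, limma adjusted p 5.95e-04). Ndufaf6 had means of 7.47, 8.22, 8.10, 7.97 and 8.34 and rose by 0.87 over the span.

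**Figure D4:**
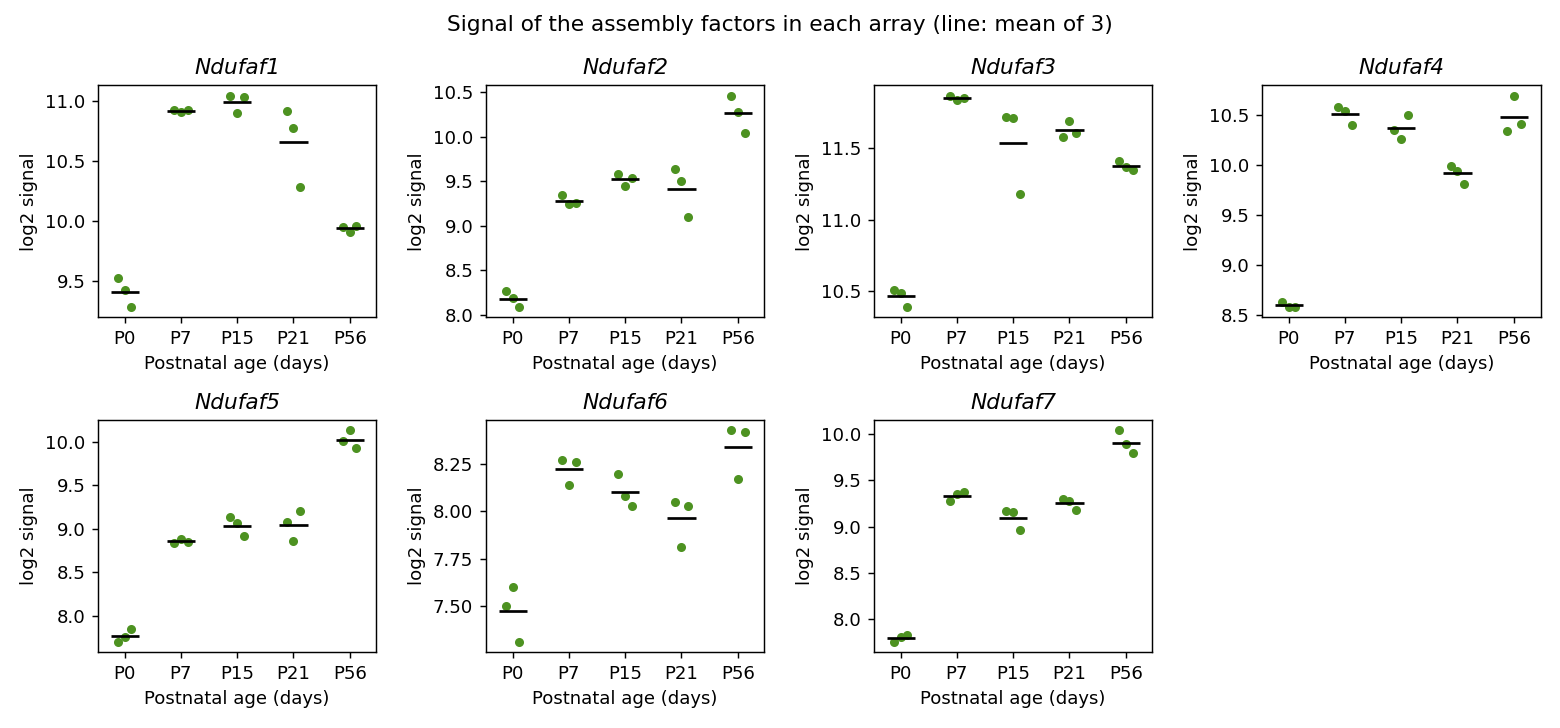
Log2 signal of the 7 assembly factors on each of the 15 arrays (points, 3 per age) with the mean of each age (short line), each panel on its own y axis. Ndufaf2, Ndufaf5 and Ndufaf7 are highest at P56, whereas Ndufaf1 is lower at P56 (mean 9.94) than at P7 (10.92).

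The 2 genes that carry the symbol without being stable complex I subunits moved differently from each other. Ndufa4, now counted as a subunit of cytochrome c oxidase, read 10.49, 10.47 and 10.40 at P0, 12.52, 12.53 and 12.51 at P7, 12.59, 12.55 and 12.26 at P15, 12.72, 12.76 and 12.63 at P21 and 13.50, 13.45 and 13.43 at P56. It rose by 3.01 over the span (SE 0.08, limma adjusted p 8.36e-16), with P0 below and P56 above all other arrays. Ndufa4l2, its paralogue known from hypoxic cells, read 6.53, 6.52 and 6.62 at P0, 6.60, 6.65 and 6.87 at P7, 6.51, 6.73 and 6.56 at P15, 6.71, 6.61 and 6.62 at P21 and 7.28, 6.68 and 7.16 at P56. It was the 1 member not called from P0 to P7 (0.15), and it rose by 0.48 over the span (SE 0.12, limma adjusted p 0.00161). P56 replicate 2 lay within the range of the P7, P15 and P21 arrays.

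Other proteins of complex I assembly, of which 13 of 14 listed were measured, all rose from P0 to P7 (median 0.95), and 10 rose with 3 not called over the span (76.9% higher, against 40.1% of all probe sets, median 1.01). The largest rises were those of Tmem70 (3.49), Dmac2 (2.47), Tmem126b (2.15) and Ecsit (1.40). From P7 to P56, 6 rose and 6 fell (46.2% each, against 25.4% and 34.2% of all probe sets). Complex II, the other entry of electrons into the chain, had all 4 subunits higher at P56 than at P0 (median 1.00), led by Sdhd (1.69), and all 4 of its assembly factors, led by Sdhaf4 (2.85). From P7 to P56, 2 complex II subunits rose and none fell (Sdha 0.26 and Sdhb 0.16), while 2 of its assembly factors fell and none rose (Sdhaf3 -0.50 and Sdhaf1 -0.48). Of 10 markers of mitochondrial mass, 7 rose, 2 fell and 1 was not called over the span (70% and 20%, against 40.1% and 35.3% of all probe sets, median 0.31), with Tomm40 at 1.69, Timm23 at 1.09, Mfn1 at -1.05 and Vdac2 at 0.78. Their list mean was 11.18 to 11.21 at P0 and 11.54 to 11.59 at P56.

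Of 12 measured regulators of nuclear respiratory genes, 5 rose, 5 fell and 2 were not called over the span (median -0.07). Those shares, 41.7% each, lay near the 40.1% higher and 35.3% lower of all probe sets. Esrra, an estrogen-related receptor, rose by 3.72, Esrrb by 1.43 and the mitochondrial DNA factor Tfam by 1.22, while Hcfc1, a cofactor of transcription factors of cell growth, fell by 0.94. The coactivator Ppargc1b gained 1.39 between P15 and P21, and its change in the last step was -2.32. Ppargc1b, Yy1 and Nrf1 are named after their values were seen. From P7 to P56, 2 of the 12 regulators rose and 8 fell (16.7% and 66.7%, against 25.4% and 34.2% of all probe sets). Yy1 fell by 0.72 and Nrf1 by 0.24 in that span, and Esrra rose by 0.75.

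**Figure D5:**
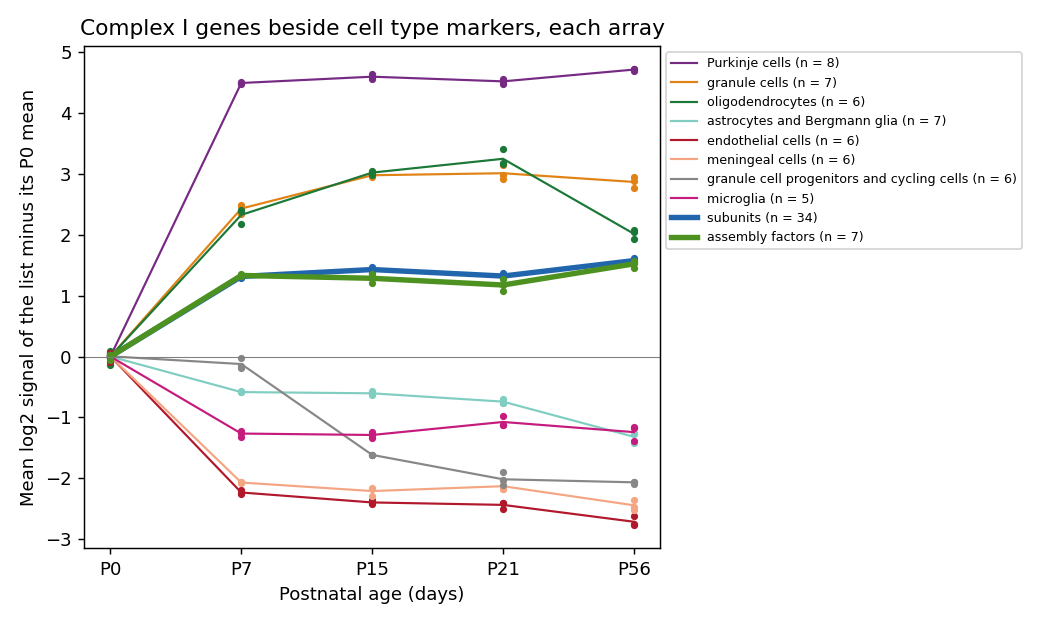
Mean log2 signal of the complex I subunits and assembly factors (thick lines) and of 8 lists of cell type markers (thin lines) minus each list's P0 mean, with 1 point per array, at 5 ages. The subunit and assembly factor lines rise at P7 together with Purkinje, granule and oligodendrocyte markers, while endothelial and meningeal markers fall, and oligodendrocyte markers drop from P21 to P56.

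Pcp2, whose promoter drives the tag, rose by 4.63 in the first week and by 0.49 in the last step. Granule cell markers averaged 8.11 to 8.15 at P0, 10.45 to 10.61 at P7 and 10.88 to 11.08 at P56. From P7 to P56, 5 of 7 rose and 1 fell (71.4% and 14.3%, against 25.4% and 34.2% of all probe sets). In the last step, from P21 to P56, 1 rose and 3 fell (14.3% and 42.9%, against 22.1% and 34.3%). Rpl10a, the mouse's own gene for the ribosomal protein used as tag, changed by 0.32 in the first week and by -0.47 between P7 and P56. Their part in the members' changes was not tested.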

How the data were processed

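The authors deposited one table of log2 signals per probe set for 15 arrays of TRAP RNA from cerebellum, 3 at each of 5 ages. Affymetrix Power Tools was used, per the submitters' processing notes; the sources used here give no version, summary algorithm or logarithm, and base 2 was taken from the range of the values (3.15 to 14.08). The deposited values were used without further scaling. Of 22092 probe sets, 20996 had 1 symbol in the platform annotation of 2016, 91 several and 1005 none. A mean per age was fitted to all 15 arrays with limma 3.58.1 in R 4.3.3 (10 residual and 6.5 prior degrees of freedom), with Benjamini-Hochberg adjustment over all probe sets for each contrast. The fit was tested on simulated data. Precision is limited by how many arrays there are: for a single gene, 3 against 3 arrays allow no exact permutation p below 0.1. The members and all gene and marker lists were chosen with earlier results of these data known, so none is independent support. Values per array are given for Ndufa1, Ndufa4, Ndufa4l2 and, in each role, the called member with the largest rise and fall over the span, and of other lists up to 4 called members with the largest change are named, besides exceptions marked in the text. Ndufaf1 was added to those with values per array after its values were seen. The alternatives left out each array in turn or the dimmest 50% of probe sets, averaged a gene's probe sets, added a replicate block, set array medians to 0, normalized by quantiles, weighted the arrays, or used a prior that was trended and robust. Ndufa9, first listed with the proximal membrane arm, was moved to the matrix arm, where it belongs, after the values were seen; in the first grouping the counts from P7 to P56 were 7 higher and 1 lower of 8 (accessory, matrix arm) and 4 and 3 of 10 (proximal). A fit without the P0 arrays, role medians with array medians set to 0, and the role counts from P7 to P56 under every setting, were added after seeing the data.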

Additional observations from a re-analysis of the deposited data

How the results depend on the processing

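The rise of all 34 subunits and all 7 assembly factors from P0 to P7 was called under every alternative run on the whole list, and the dimmest 50% filter removed 1 of the 43 members. Quantile normalization gave medians of 1.15 (subunits) and 1.27 (assembly factors) for P0 to P7, 0.228 and 0.739 for P21 to P56, 1.32 and 2.03 for P0 to P56 and 0.181 and 0.416 for P7 to P56, with 4 subunits lower and 1 assembly factor higher and 1 lower for P7 to P15, 2 subunits lower for P0 to P56, 1 accessory subunit of the matrix arm lower for P7 to P56, and Ndufb11 at -0.0404. With array medians set to 0 the subunit medians were 1.34 (P0 to P7), 0.138 (P7 to P15), -0.178 (P15 to P21), 0.361 (P21 to P56), 1.71 (P0 to P56) and 0.356 (P7 to P56), and those of assembly factors -0.0513 (P7 to P15), 0.799 (P21 to P56), 2.21 (P0 to P56) and 0.382 (P7 to P56). The same setting gave 1 assembly factor higher and 0 lower for P7 to P15, 0 subunits higher, 11 lower and 2 assembly factors lower for P15 to P21, 5 subunits lower for P21 to P56, 0 lower for P0 to P56, and for P7 to P56 7 subunits lower, 5 assembly factors higher and 1 lower, 1 core subunit higher and 2 lower, 1 accessory subunit of the matrix arm lower and 7 proximal subunits higher. It reversed Ndufb5 (0.0194) and Ndufv2 (0.062) for P21 to P56, Ndufc2 (0.321) and Ndufs7 (0.122) for P0 to P56, and Ndufa9 (0.0781), Ndufs8 (0.0492) and Ndufv2 (0.035) for P7 to P56; by its construction it adds the difference in array medians. Array weights gave 4 subunits lower and 2 assembly factors higher for P7 to P15 and 0 subunits higher for P15 to P21. A trended and robust prior gave 5 subunits lower for P7 to P15, 10 subunits and 2 assembly factors lower for P15 to P21 and 2 assembly factors lower for P21 to P56, and without the dimmest 50% these last 3 were 11, 2 and 2. Without the P0 arrays, a fit chosen after seeing the data, 0 assembly factors were lower for P7 to P15. Replicate numbers did not pair the arrays across all ages (5 of 30 same-number correlations were over 0.1, median -0.00296). The largest were between P15 and P21, at 0.453 for replicate 2 and 0.334 for replicate 1, against 0.0158 for replicate 3. Shared handling of those arrays was not tested. The replicate block gave 2 assembly factors lower for P15 to P21 and 2 for P21 to P56, its other counts within 1.5 times. Leaving out each array in turn gave 0 to 2 assembly factors lower and subunit medians of 0.0493 to 0.116 for P7 to P15. For P15 to P21 it gave 0 to 1 subunits higher, 3 to 7 lower, 1 to 2 assembly factors lower and assembly factor medians of -0.178 to -0.0605. For P21 to P56 the range was 1 to 2 assembly factors lower, with medians of 0.0914 to 0.174 (subunits) and 0.46 to 0.603 (assembly factors), and the assembly factor median for P0 to P56 was 1.78 to 1.96. For P7 to P56 the medians were 0.0251 to 0.123 and 0.0722 to 0.204, with 1 to 2 accessory subunits of the matrix arm lower. Ndufc2, at 0 over the span, ran from -0.0318 to 0.0146 and was positive without P0 replicate 2 (0.00235) or 3 (0.000433) and without P56 replicate 2 (0.0146) or 3 (0.0125). Apart from array medians set to 0, the cause of these differences was not tested.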
